A study of Mus musculus with 24 samples.

Results

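The genes described here are 9 members of the Ly6/uPAR family, Ly6a, Ly6c1, Ly6c2, Ly6e, Ly6h, Lynx1, Lypd1, Lypd6 and Gpihbp1, out of 53465 genes listed for the brains of 12 mice. They were chosen by name, as vascular and neuronal surface proteins of the family, with strain differences measured in these same animals already known. Their strain differences are therefore given as a description, without a test. All 9 were found in the files by symbol, and 7 of the 9 had enough reads to enter the comparison of all genes; Ly6c2 and Gpihbp1 did not.

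The animals were 6 mice of CAST/EiJ, an inbred strain derived from wild Mus musculus castaneus, and 6 of WSB/EiJ, an inbred strain derived from wild Mus musculus domesticus. The purpose given for the series is to find expression differences between strains that develop unequal infarcts after occlusion of the middle cerebral artery. The tissue is labelled brain, and the labels give no surgery, treatment, sex, age or dissected region for these animals. Each animal's library was sequenced on lanes 5 and 6, and the reads of both lanes were summed. The labels number the animals. P-values between strains set a difference against the variation among these 12 libraries, and those within a strain rest on its 6 animals.

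Ly6/uPAR proteins share a small fold of beta-stranded loops held by disulfide bonds, and most are tied to the outer face of the cell membrane by a glycosylphosphatidylinositol (GPI) anchor. In the mouse brain, Ly6a (also called Sca-1) and Ly6c1 are known as surface proteins of the capillary endothelium, and Ly6a is the receptor through which AAV-PHP.B capsids enter the brain. Lynx1, Ly6h and Lypd1 are neuronal members that bind nicotinic acetylcholine receptors and tune their activity or surface number.

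Of the 9 genes, 7 lie on chromosome 15 in GENCODE M21 (mouse genome GRCm38), in the order Lynx1 (74747852 to 74753046), Ly6e (74955051 to 74959905), Ly6a (74994877 to 74998031), Ly6c1 (75044018 to 75048830), Ly6c2 (75108158 to 75111970), Ly6h (75551268 to 75567255) and Gpihbp1 (75596628 to 75599481). Ly6e and Gpihbp1 are on the plus strand and the other 5 on the minus strand. Lypd1 lies on chromosome 1 (125867622 to 125913101, minus strand) and Lypd6 on chromosome 2 (50066429 to 50193569, plus strand). Another gene of the cluster, Ly6i (74979534 to 74983430, minus strand), is no member, and its values are given where those of its near copies are. No source used here gives the build of the authors' alignment.

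The first 120 coding bases of the 4 most alike genes are shown because reads from one can match another. They were read from GENCODE M21 transcripts of the reference mouse genome, 5′ to 3′, and capitals mark the bases that differ from Ly6c1.
Ly6c1: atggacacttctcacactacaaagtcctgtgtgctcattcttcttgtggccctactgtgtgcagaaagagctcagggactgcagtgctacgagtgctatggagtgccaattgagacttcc
Ly6c2: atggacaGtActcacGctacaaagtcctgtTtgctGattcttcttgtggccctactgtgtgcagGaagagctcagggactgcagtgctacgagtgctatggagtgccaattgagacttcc
Ly6a: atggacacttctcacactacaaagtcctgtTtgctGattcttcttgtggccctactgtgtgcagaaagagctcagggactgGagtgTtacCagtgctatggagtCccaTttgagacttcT
Ly6i: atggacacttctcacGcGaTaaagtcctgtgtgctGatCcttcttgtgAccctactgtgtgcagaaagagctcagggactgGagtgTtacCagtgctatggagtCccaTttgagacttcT

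Within these 120 bases Ly6c2 differs from Ly6c1 at 6 positions, Ly6a at 8 and Ly6i at 12. Over the whole coding sequence Ly6c1 and Ly6c2 are 97.7% identical, Ly6a and Ly6c1 81.8%, and Ly6a and Ly6i 86.3%. Of the 32-base stretches in the transcripts of Ly6c1, 46.0% also occur in transcripts of another gene, 32.2% in Ly6c2 and 15.5% in Ly6a. The same share is 31.2% for Ly6a (21.6% with Ly6c1) and 23.2% for Ly6c2. With stretches of 50 bases the shares are 32.8% for Ly6c1, 19.0% for Ly6a and 14.5% for Ly6c2. Lynx1, Lypd6 and Gpihbp1 share no 32-base stretch with another gene, Ly6e shares 0.372% and Ly6h 1.32%. Lypd1 shares 18.0%, most of it with the overlapping gene Gpr39 (16.8%). Read assignment among Ly6a, Ly6c1, Ly6c2 and Ly6i is therefore uncertain. The deposited counts hold a counter, separate from the genes, for alignments that are not unique. Whether such reads were also counted for a gene is not given, nor are the settings of the counting step. These sequences are those of the reference genome, and the CAST/EiJ and WSB/EiJ alleles were not analysed here.

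The start regions of Ly6c1 and Ly6c2 are shown because both genes had reads mainly in CAST/EiJ brains. The RefSeq promoter table (GRCm38.p6) holds entries for 4 members, Ly6c1, Ly6c2, Lypd1 and Lypd6. Each line is the 150 bases before the start site on the minus strand, at chr15:75048838-75048987 for Ly6c1 and chr15:75111972-75112121 for Ly6c2. Capitals mark the motifs TATAAA and CCAAT.
Ly6c1: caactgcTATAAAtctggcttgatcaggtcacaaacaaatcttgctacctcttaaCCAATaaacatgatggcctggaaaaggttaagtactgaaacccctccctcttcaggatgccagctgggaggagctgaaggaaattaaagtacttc
Ly6c2: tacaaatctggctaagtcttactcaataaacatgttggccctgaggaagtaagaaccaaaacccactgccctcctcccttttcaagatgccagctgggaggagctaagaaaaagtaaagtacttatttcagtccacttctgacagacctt

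Over the 250 bases before their start sites the Ly6c1 and Ly6c2 entries are 57.7% identical, with 164 identical bases in an alignment of 284. Gaps count as differences, so an offset between the windows lowers this value. By the same measure the other pairs of the 4 members are 40.8% to 45.6% identical. For Ly6c1 and Ly6c2 the table has 2 start sites each, and the one nearer the GENCODE start was used. Motifs were searched on both strands from 250 bases before to 50 after the start. The Ly6c1 window holds 1 TATAAA and 1 CCAAT, and the Ly6c2 window holds neither. Among 32851 promoter entries of the same length, 13.6% hold TATAAA and 37.4% hold CCAAT. The interferon-related motifs TTCNNNGAA (GAS) and GAAA, any 2 bases, GAAA (ISRE core), held by 8.30% and 3.44% of entries, were not found in the windows of these 4 members, and GGAA (the core of ETS sites), held by 96.0% of entries, was found in all 4. These matches describe the reference sequence only.

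The libraries held 33.0 to 46.5 M reads in genes, 42.9 ± 3.32 M in CAST/EiJ and 40.0 ± 4.35 M in WSB/EiJ (mean ± SD, n = 6 each, exact two-sided permutation p = 0.229, 0.298 after Benjamini-Hochberg adjustment over 5 library measures). Alignments counted as not unique made up 15.8% ± 0.195 in CAST/EiJ and 17.2% ± 0.177 in WSB/EiJ (SD, n = 6 each, exact two-sided permutation p = 0.00216, adjusted p = 0.0108). The 6 neuronal markers summed to 6132 to 6917 CPM in CAST/EiJ and 6631 to 7621 in WSB/EiJ (CPM, counts per 1000000 reads of a library, scaled by the TMM method), and the 25 endothelial markers were all detected. The library CAST_142 stood apart by its cerebellar markers, with a summed level of 994 CPM against 31.2 to 62.5 in the other CAST/EiJ animals, and its striatal sum of 335 CPM was the lowest of the 12. WSB_100 stood apart by its olfactory bulb markers, at 218 CPM against 15.6 to 41.9 in the other WSB/EiJ animals. In the edgeR quasi-likelihood comparison 7866 of 18425 genes tested differed between strains at a Benjamini-Hochberg adjusted p under 0.05, which is 42.7%. Of all genes tested 21.5% were higher and 21.2% lower in CAST/EiJ, 12.2% were called with at least a 2-fold difference, and 27.1% had CPM ranges that did not overlap between the strains.

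Among the 9 members, Ly6a and Ly6c1 stood far apart between the strains in opposite directions, while Lynx1 and Ly6h had nearly equal means. Lypd6 also had separate ranges (log2 difference -0.42), and the capillary gene Gpihbp1 had too few reads to compare. The members were chosen on this contrast, so no difference between vascular and neuronal members is read from it. Ly6c1 was present at about the same level in every CAST/EiJ brain and gave 2 reads in all 6 WSB/EiJ brains together. Ly6a was detected in all 12 brains and was 3.04 times as high in WSB/EiJ. The plot of each gene in every animal shows these levels.

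**Figure D1:**
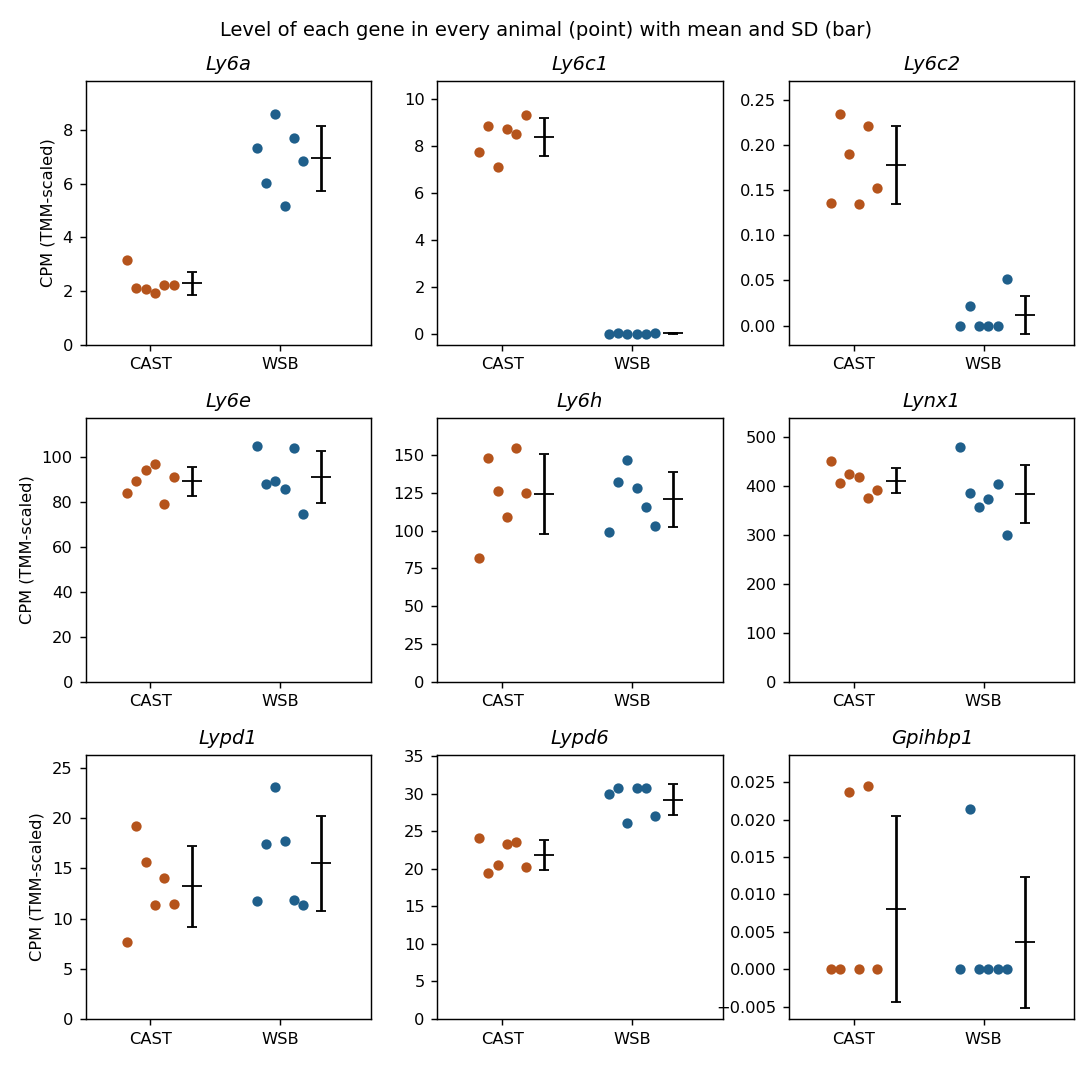
Level of each of the 9 genes in every animal, in TMM-scaled CPM on linear axes of different range, by strain; each point is 1 animal and each bar the mean with its SD (n = 6). Ly6a, Ly6c1, Ly6c2 and Lypd6 have ranges that do not overlap, and the 3 reads of Gpihbp1 are its 3 points above 0.

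Ly6a in CAST/EiJ was 3.14, 2.13, 2.09, 1.94, 2.21 and 2.22 CPM in CAST_142, CAST_170, CAST_200, CAST_201, CAST_202 and CAST_203. In WSB/EiJ it was 7.34, 6.04, 8.60, 5.17, 7.69 and 6.83 CPM in WSB_120, WSB_135, WSB_138, WSB_147, WSB_169 and WSB_100. The highest CAST/EiJ value, in CAST_142, was below the lowest WSB/EiJ value. The means were 2.29 ± 0.429 and 6.94 ± 1.22 CPM (SD, n = 6 each), from 591 and 1652 reads, and the fitted log2 difference, CAST minus WSB, was -1.60 (SE 0.14). Without CAST_142 the CAST/EiJ mean was 2.12 ± 0.111 CPM (n = 5).

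Ly6c1 in CAST/EiJ was 7.75, 8.85, 7.12, 8.72, 8.52 and 9.34 CPM in the same order of animals, with a mean of 8.38 ± 0.808 (SD, n = 6). In WSB/EiJ it was listed at 0 in 4 animals, and WSB_135 and WSB_100 had 1 read each, 0.0214 and 0.0256 CPM. The strains therefore differed by 2159 reads against 2, a ratio of 1006 at equal depth with a 95% exact binomial interval of 278 to 8311 that covers counting error only. The fitted log2 difference was 9.53 (SE 0.27), and its size depends on the small count added in the fit. The sample titles number WSB_100 (23) directly after CAST_203 (22), the last of the CAST/EiJ libraries, and alignments counted as not unique took a larger share in WSB/EiJ, as given above. Whether either bears on these counts was not tested.

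Ly6c2, a close copy of Ly6c1 known from monocytes, had few reads in either strain. In CAST/EiJ it ranged from 0.135 to 0.234 CPM with a median of 0.171, and in WSB/EiJ it was 0.0214 CPM in WSB_135, 0.0512 CPM in WSB_100 and 0 in the other 4. The totals were 46 and 3 reads, a ratio of 14.3 at equal depth (95% interval 4.59 to 71.8, counting error only). With coding sequences so nearly identical, reads counted for Ly6c2 may come from Ly6c1 and the reverse.

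The sum of Ly6a, Ly6c1, Ly6c2 and Ly6i was 11.3 ± 0.957 CPM in CAST/EiJ and 6.96 ± 1.21 in WSB/EiJ (SD, n = 6 each), with ranges of 9.66 to 12.5 and 5.17 to 8.60. Ly6c1 made up 74.2% of this sum in CAST/EiJ (61.9% to 78.9% by animal) and 0.120% in WSB/EiJ. Ly6a made up 20.2% in CAST/EiJ (17.4% to 25.1%) and 99.7% in WSB/EiJ. The sums differ less between the strains than the makeup does, as the stacked levels show.

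**Figure D2:**
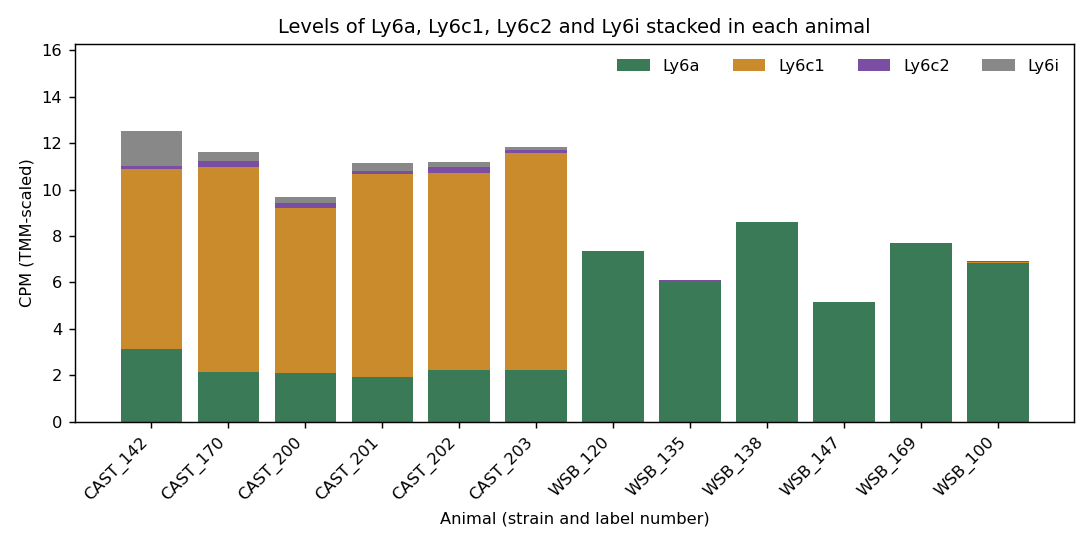
Levels of Ly6a, Ly6c1, Ly6c2 and Ly6i in TMM-scaled CPM, stacked for each of the 12 animals. Ly6c1 is the tallest block in all 6 CAST/EiJ animals, and Ly6a is nearly the whole bar in all 6 WSB/EiJ animals.

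Genes beside Ly6a were low in WSB/EiJ too; they were picked out after their values were seen. Ly6i had 66, 18, 11, 13, 10 and 6 reads in the CAST/EiJ animals, more in CAST_142 than in the other 5 together (1.49 CPM against 0.130 to 0.383 in the others), and 0 in every WSB/EiJ animal. Its total of 124 reads was at least 38.5-fold higher than the 3 reads that a count of 0 over the 6 WSB/EiJ animals allows. Gm8000, an annotated pseudogene between Ly6i and Ly6a (74986591 to 74988460), was 0.515 ± 0.0623 CPM in CAST/EiJ and 0.0310 ± 0.0346 in WSB/EiJ, from 132 and 7 reads, a ratio of 17.6 at equal depth (95% interval 8.29 to 44.6, counting error only). Over the 6 WSB/EiJ brains Ly6i, Gm8000, Ly6c1 and Ly6c2 thus had 0, 7, 2 and 3 reads, while Ly6a, which lies between Gm8000 and Ly6c1, had 1652.

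Ly6d, a family gene next to Lynx1 that marks early lymphoid cells, went the other way. It had 2 reads in CAST/EiJ and 84 in WSB/EiJ, means of 0.00724 ± 0.0177 and 0.347 ± 0.0913 CPM (adjusted p = 4.85e-06), and the WSB/EiJ to CAST/EiJ ratio was 45.1 with a 95% counting interval of 12.1 to 378. Both CAST/EiJ reads were in CAST_203, so Ly6d had enough reads for the test through WSB/EiJ alone. Its fitted log2 difference of -5.03 was -6.85 without CAST_203, and it fell under the expression filter without WSB_135 or without WSB_169. It shares no 32-base stretch with another gene. From 500 kb before Lynx1 to 500 kb after Gpihbp1 on chromosome 15 there were 73 other genes, of which 19 were listed at 0 and 29 were tested. Of those 29, 10 were higher and 2 lower in CAST/EiJ, 41.4% called beside 42.7% of all genes tested. Ranges that did not overlap were seen in 5, beside 27.1% of all genes tested. The median log2 difference of the 29 was 0.06, beside 0.00 over all genes tested. Only Ly6d and Naprt were protein-coding and called with at least a 2-fold difference. Naprt, an enzyme of NAD synthesis from nicotinic acid, was 5.09 ± 1.11 CPM in CAST/EiJ and 2.44 ± 0.350 in WSB/EiJ (log2 difference 1.06, SE 0.15, adjusted p = 7.75e-05). It overlaps Eef1d, with 92.1% of its body outside other genes, and reads from the shared part may not have been counted for it.

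**Figure D3:**
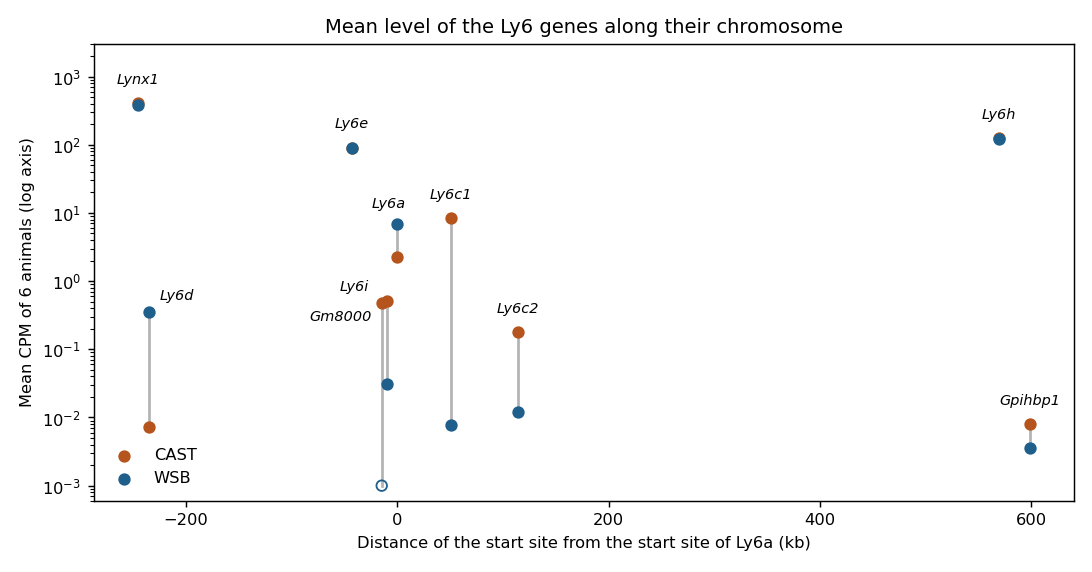
Mean level over 6 animals of each strain (TMM-scaled CPM, log axis) for the Ly6 genes and Gm8000 on chromosome 15, by the distance of each start site from that of Ly6a in kb. Grey lines join the strains, the open circle marks Ly6i with no read in WSB/EiJ, and Lynx1, Ly6e and Ly6h have points that nearly coincide.

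Ly6e, a broadly expressed member known as the receptor of the placental fusion protein syncytin-A and as an inhibitor of coronavirus entry, lies between Lynx1 and Ly6a. In CAST/EiJ its lowest, median and highest values were 79.2, 90.2 and 96.6 CPM, and in WSB/EiJ 74.5, 88.5 and 105 CPM. The ranges overlapped, and the lowest WSB/EiJ value was that of WSB_100. The means were 89.0 ± 6.52 and 91.0 ± 11.5 CPM (SD, n = 6 each) and the log2 difference was -0.03 (SE 0.08).

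Among the neuronal members, Lynx1, which tethers to nicotinic receptors and lowers their sensitivity, was the most abundant. It ranged from 375 to 449.7 CPM with a median of 411 in CAST/EiJ and from 299.8 to 479.9 with a median of 379.8 in WSB/EiJ. The WSB/EiJ range enclosed that of CAST/EiJ, with WSB_120 highest and WSB_100 lowest. The means were 410.5 ± 25.9 and 383 ± 59.2 CPM (SD, n = 6 each), the log2 difference was 0.10 (SE 0.09), and it was 0.01 without CAST_142 and WSB_100.

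Ly6h, which lowers the amount of alpha7 nicotinic receptor at the cell surface, ranged from 81.9 to 155 CPM with a median of 126 in CAST/EiJ and from 99.0 to 147.2 with a median of 122 in WSB/EiJ. The ranges overlapped almost wholly, and the lowest value was in CAST_142, the library with few striatal and many cerebellar marker reads. The means were 124 ± 26.5 and 121 ± 18.4 CPM (SD, n = 6 each), with a log2 difference of 0.04 (SE 0.14). Without CAST_142 the CAST/EiJ mean was 133 ± 18.6 CPM (n = 5).

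Lypd1, also called Lynx2 and likewise a partner of neuronal nicotinic receptors, had the widest relative spread within strains among the 6 members with reads in all 12 animals (within-strain SD of log2 CPM 0.44). It ranged from 7.68 to 19.2 CPM with a median of 12.7 in CAST/EiJ and from 11.3 to 23.1 with a median of 14.6 in WSB/EiJ. CAST_142 was again lowest, and the ranges overlapped. The means were 13.2 ± 3.98 and 15.5 ± 4.74 CPM (SD, n = 6 each) and the log2 difference was -0.23 (SE 0.22). Gpr39 overlaps it, and 86.3% of its gene body is free of annotated neighbours.

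Lypd6, which binds the Wnt co-receptor Lrp6 and enhances Wnt signalling, had separate ranges. It was 24.1, 19.4, 20.5, 23.3, 23.6 and 20.2 CPM in the CAST/EiJ animals in the order given for Ly6a. It was 30.0, 30.7, 26.1, 30.8, 30.7 and 27.0 CPM in the WSB/EiJ animals. Every WSB/EiJ value was above every CAST/EiJ value, by a smaller margin than for Ly6a. The means were 21.9 ± 2.04 and 29.2 ± 2.11 CPM (SD, n = 6 each), with a log2 difference of -0.42 (SE 0.07). Its neighbour and closest relative on chromosome 2, Lypd6b, was 7.81 ± 0.965 and 8.28 ± 0.587 CPM and did not pass edgeR's test (log2 difference -0.08, SE 0.08, adjusted p = 0.459).

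Gpihbp1, the capillary protein that carries lipoprotein lipase to the vessel lumen and is known to be absent from most brain capillaries, had 2 reads in CAST/EiJ and 1 in WSB/EiJ. Both totals are at or under the floor of 3 reads over 6 animals (0.0117 CPM in CAST/EiJ and 0.0125 in WSB/EiJ), so no fold is given. A level under these limits was not detectable at this depth.

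Of the 9 members, 4 had ranges that did not overlap, Ly6a, Ly6c1, Ly6c2 and Lypd6, and 3 of these were among the 7 tested. All genes tested show such separation in 27.1% of cases, and since the members were chosen on this contrast nothing is read from the count. Per kb of annotated exon, the level in CAST/EiJ was highest for Lynx1 (88.0 ± 5.56 CPM per kb), followed by Ly6h (29.4 ± 6.27), Ly6e (23.5 ± 1.72), Lypd6 (5.86 ± 0.547), Ly6c1 (5.00 ± 0.482), Ly6a (1.9 ± 0.356), Lypd1 (1.88 ± 0.565), Ly6c2 (0.0649 ± 0.0159) and Gpihbp1 (0.00315 ± 0.00488). Neighbours in this order whose mean ± SD intervals overlap are Ly6h and Ly6e, Lypd6 and Ly6c1, and Ly6a and Lypd1. In WSB/EiJ the order began with Lynx1 (82.1 ± 12.7), Ly6h (28.6 ± 4.35), Ly6e (24 ± 3.04), Lypd6 (7.83 ± 0.567), Ly6a (5.76 ± 1.01) and Lypd1 (2.20 ± 0.674), and Ly6c1, Ly6c2 and Gpihbp1, with 2, 3 and 1 reads, came last. The SD intervals of Ly6h and Ly6e overlapped there as well, as did those of the last 3. Because the counts may include intronic reads, the same levels were taken per kb of gene body, and Ly6e then stood above Ly6h, while Lypd6, with a long gene body of 127141 bases, dropped to rank 7 in CAST/EiJ and 6 in WSB/EiJ.

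The plot of strain differences sets the tested members beside the rest of the family.

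**Figure D4:**
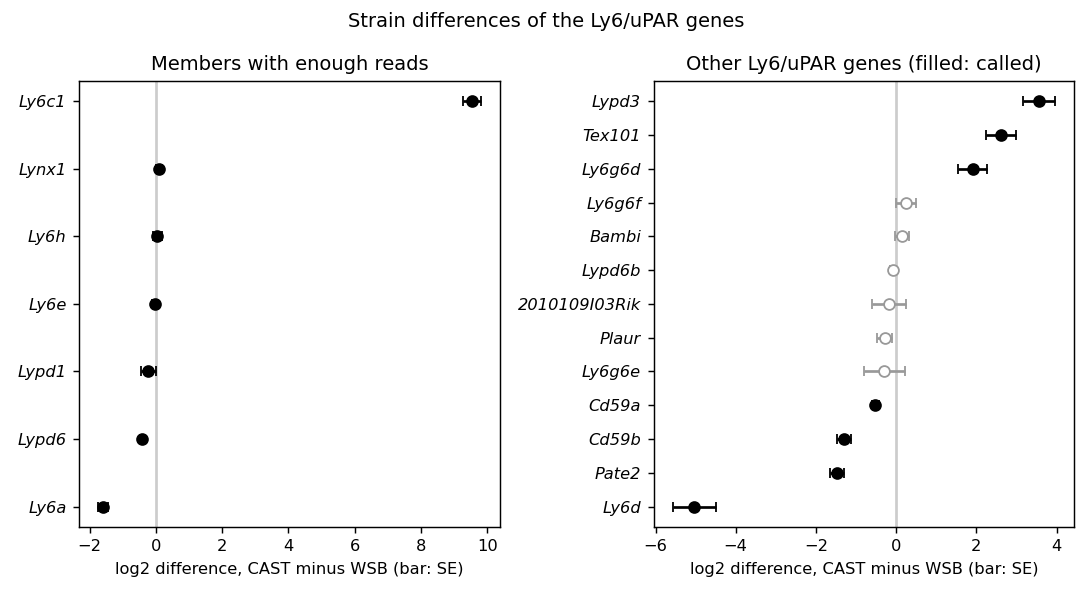
Log2 difference between strains, CAST minus WSB, with its SE (bars) for the 7 members with enough reads and for the 13 other Ly6/uPAR genes tested. On the right, filled points are genes called by edgeR at an adjusted p under 0.05, with Lypd3 at 3.57 and Ly6d at -5.03 as the ends of the range.

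Of 44 other Ly6/uPAR symbols, 39 were in the files, 9 were listed at 0 in all animals and 13 were tested. Of the 13, 3 were higher and 4 lower in CAST/EiJ by edgeR's test, beside 21.5% and 21.2% of all genes tested. Their median log2 difference was -0.17, and 7 had ranges that did not overlap, beside 27.1% of all genes tested. The genes called higher in CAST/EiJ were Lypd3 (0.578 ± 0.189 against 0.0466 ± 0.0288 CPM, adjusted p = 7.06e-06), Tex101, a germ cell surface protein (0.953 ± 0.339 against 0.149 ± 0.0891 CPM, adjusted p = 7.04e-05), and Ly6g6d (0.719 ± 0.355 against 0.192 ± 0.0811 CPM, adjusted p = 7.26e-04). These are low levels, and Lypd3 and Ly6g6d overlap other genes. Reads in CAST/EiJ and WSB/EiJ were 149 and 11 for Lypd3, 246 and 37 for Tex101, and 184 and 45 for Ly6g6d. All 3 had enough for the test through CAST/EiJ alone. The genes called lower were Ly6d, Pate2 (0.888 ± 0.243 against 2.46 ± 0.322 CPM, adjusted p = 1.63e-05), Cd59b (1.21 ± 0.261 against 2.98 ± 0.525 CPM, adjusted p = 3.25e-05) and Cd59a (7.97 ± 0.948 against 11.5 ± 1.27 CPM, adjusted p = 4.20e-04). Cd59a and Cd59b are GPI-anchored inhibitors of the complement membrane attack complex. Cd59b shares 10.9% of its 32-base stretches with Cd59a, and Cd59a 7.95% with Cd59b. Cd59b shares 29.6% with all other genes together, so its count is the less certain of the pair.

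The endothelial marker list was examined because Ly6a and Ly6c1 are known from that cell type; in bulk tissue, fewer cells of a type and less RNA per cell cannot be told apart. All 25 markers were tested, 7 were higher and 6 lower in CAST/EiJ, and the median log2 difference was 0.03. The share called was 52.0%, beside 42.7% of all genes tested. Their summed level was 585 to 666 CPM in CAST/EiJ and 572 to 673 in WSB/EiJ. Among them Tie1, an endothelial receptor kinase, was 13.4 ± 1.73 against 8.85 ± 0.967 CPM (adjusted p = 2.13e-04), Pecam1, an endothelial junction protein, 22.9 ± 1.69 against 17.7 ± 1.22 CPM (adjusted p = 2.32e-04), and Ramp2, a partner of the adrenomedullin receptor, 10.1 ± 0.976 against 7.21 ± 0.724 CPM (adjusted p = 3.60e-04). In the other direction Kdr, the main VEGF receptor, was 13.8 ± 1.12 against 18.9 ± 1.5 CPM (adjusted p = 1.30e-04), and the blood-brain barrier transporters Abcb1a and Slco1a4 had log2 differences of -0.24 (adjusted p = 8.35e-04) and -0.25 (adjusted p = 5.84e-03). None of these differences reached the size of those of Ly6a or Ly6c1. Ramp2 overlaps Vps25, and 56.8% of its body is free of annotated neighbours.

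Of 12 mural cell markers 11 were tested, and 0 were higher and 6 lower in CAST/EiJ by edgeR's test, with a median log2 difference of -0.18. The share called was 54.5%, beside 42.7% of all genes tested, of which 21.2% were lower in CAST/EiJ. At an unadjusted p under 0.05 edgeR gave 1 higher, and DESeq2 called 0. Their sum was 164 to 194 CPM in CAST/EiJ and 246 to 275 in WSB/EiJ, ranges that do not overlap. Rgs5 and Vtn carried most of this gap in CPM. Without them the other 10 summed to 105 ± 5.29 CPM in CAST/EiJ and 109 ± 7.53 in WSB/EiJ (SD, n = 6 each), with overlapping ranges. Among these 10, Abcc9, Anpep, Higd1b and Pdgfrb were still called lower, with log2 differences of -0.57, -0.49, -0.42 and -0.18. The contractile gene Acta2 and the listed markers Cspg4 and Notch3 had log2 differences of 0.34, 0.22 and 0.15 and were not called. The pericyte gene Rgs5 was 45.8 ± 4.03 against 117 ± 9.20 CPM (log2 difference -1.36, SE 0.07, adjusted p = 2.26e-09), Vtn 22.3 ± 3.57 against 41.2 ± 2.69 CPM (adjusted p = 4.42e-06) and Abcc9 10.1 ± 0.774 against 15 ± 1.45 CPM (adjusted p = 3.24e-05). Like Ly6a these were lower in CAST/EiJ, and whether they bear on it was not tested. A list of 16 leukocyte markers was used because Ly6c2 and Ly6a are also known from blood cells. Called were 42.9% of the 7 tested, beside 42.7% of all genes tested. Of the 7, 3 were higher and 0 lower in CAST/EiJ (edgeR, median log2 difference 0.52). None was lower at an unadjusted p under 0.05 (0 genes), and DESeq2 called 0 lower. Their sum was 16.0 to 43.3 CPM in CAST/EiJ, lowest in CAST_142, and 21.1 to 24.8 in WSB/EiJ. Itgam and Ms4a1 were listed at 0, and whether this reflects the counting was not tested. The 3 were the macrophage genes Lyz2 (5.36 ± 0.643 against 3.53 ± 0.288 CPM, adjusted p = 1.83e-04) and Mrc1 (5.77 ± 1.39 against 4.03 ± 0.453 CPM, adjusted p = 0.0214) and the neutrophil gene S100a9 (0.369 ± 0.118 against 0.179 ± 0.0758 CPM, adjusted p = 0.0174). Their bearing on Ly6c2 was not tested. Mrc1 missed the threshold without CAST_170 (adjusted p = 0.0508) or WSB_135 (adjusted p = 0.0505). The 4 tested leukocyte markers not called were Cd163, Itgal, F13a1 and Ptprc, with log2 differences of 1.02, 0.28, 0.15 and -0.05. Cd163 ranged from 1.40 to 22.2 CPM in CAST/EiJ.

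Within each strain, the level of each member was compared with an endothelial score, the mean log2 CPM of the 25 markers, which was 4.24 ± 0.08 in CAST/EiJ and 4.19 ± 0.06 in WSB/EiJ (SD, n = 6 each). The comparison had 14 member and strain pairs and 28 tests. The smallest p that the exact permutation of 6 animals could give was 0.00278, so no test could pass adjustment on its own. None passed Benjamini-Hochberg adjustment, which therefore does not show that a relation is lacking. The closest was Ly6e in WSB/EiJ, with Pearson r = 0.98 (n = 6, exact permutation p = 0.00833, which adjustment raised to 0.233). Its Spearman rho was 0.89 (exact permutation p = 0.0333, raised to 0.350). Without WSB_100 and WSB_169, the animals farthest from the median score, r was 0.93. Ly6e in CAST/EiJ had r = 0.62 (exact permutation p = 0.176, raised to 0.783) and a rho of 0.54 (exact permutation p = 0.297, raised to 0.840). Ly6a had r = -0.20 in CAST/EiJ (exact permutation p = 0.803) and 0.31 in WSB/EiJ (exact permutation p = 0.543), with rho of -0.77 (exact permutation p = 0.103) and 0.60 (exact permutation p = 0.242). Ly6c1 in CAST/EiJ had r = -0.35 (exact permutation p = 0.510) and rho = -0.14 (exact permutation p = 0.803). Without CAST_142, r of Ly6a in CAST/EiJ was -0.81 (5 animals, not tested). The adjusted values of these Ly6a and Ly6c1 relations were 0.719 to 0.899. Without the 2 animals farthest from the median score r was -0.96 and 0.42 for Ly6a, 0.57 for Ly6c1 and 0.80 for Ly6e in CAST/EiJ, a change of sign for Ly6c1. The score varied little within a strain, from 4.14 to 4.32 in CAST/EiJ and from 4.09 to 4.25 in WSB/EiJ.

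**Figure D5:**
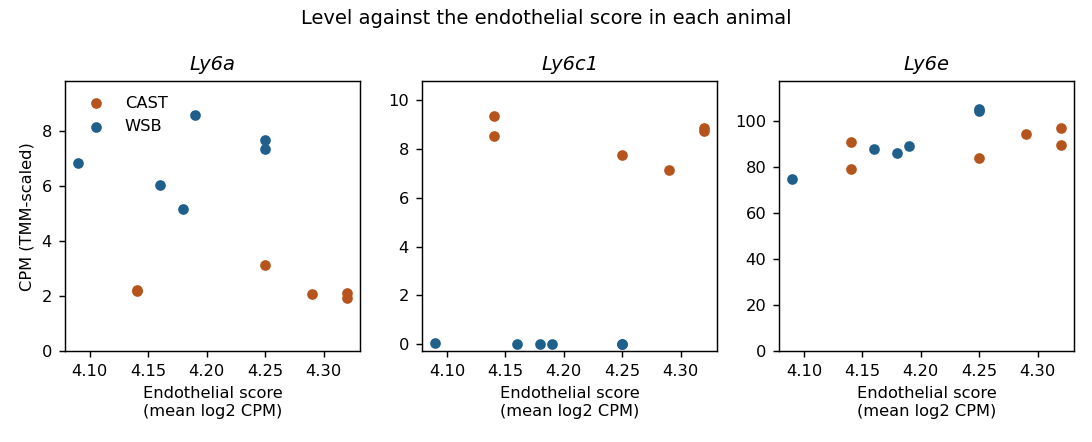
Level of Ly6a, Ly6c1 and Ly6e (TMM-scaled CPM) against the endothelial score (mean log2 CPM of 25 markers) in each animal, coloured by strain, n = 6 a strain. Ly6a and Ly6c1 separate the strains at overlapping scores, and Ly6e is highest in the WSB/EiJ animals with the highest scores.

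The partners of the neuronal members were taken as a list of nicotinic receptor subunits and chaperones. Of 18, 15 were tested, 3 were higher and 2 lower in CAST/EiJ, and the median log2 difference was 0.05. The share called was 33.3%, beside 42.7% of all genes tested. The subunits of the main brain receptors, named for that role, were not called: Chrna4 was 64.8 ± 9.77 against 63.0 ± 10.9 CPM, Chrnb2 73.0 ± 10.3 against 70.4 ± 6.44 CPM and Chrna7 31.7 ± 5.34 against 27.5 ± 1.53 CPM. The receptor chaperone Ric3 was 93.1 ± 5.74 against 62.1 ± 3.0 CPM (log2 difference 0.58, SE 0.05, adjusted p = 3.18e-07). Chrnb3 (5.48 ± 1.02 against 2.57 ± 0.643 CPM, adjusted p = 1.63e-04) and Chrna3 (4.39 ± 0.805 against 2.35 ± 0.795 CPM, adjusted p = 3.57e-03) were also higher in CAST/EiJ. Chrna1, the muscle receptor subunit, was lower (0.114 ± 0.0297 against 0.755 ± 0.194 CPM, adjusted p = 7.92e-07). It had 29 reads in CAST/EiJ and 180 in WSB/EiJ, enough for the test through WSB/EiJ alone. Chrna2 was 0.954 ± 0.260 against 1.71 ± 0.799 CPM (adjusted p = 0.0350), a call lost on lane 6 alone, without CAST_142, CAST_200, CAST_201, WSB_135 or WSB_100 in turn and without CAST_142 and WSB_100 together (adjusted p 0.0526 to 0.0980).

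For Lypd6, of 22 Wnt receptors and regulators 21 were tested, with a median log2 difference of -0.03. Of the 21, 4 were higher and 4 lower in CAST/EiJ, 38.1% called beside 42.7% of all genes tested. The Lypd6 partner Lrp6 was 81.4 ± 3.41 against 83.8 ± 4.77 CPM and was not called (adjusted p = 0.475). Higher in CAST/EiJ were the Wnt receptors Ryk (57.1 ± 4.89 against 34.7 ± 3.85 CPM, adjusted p = 4.92e-06) and Ror2 (2.79 ± 0.656 against 1.13 ± 0.212 CPM, adjusted p = 5.54e-05), and the secreted regulator Dkk2 (2.95 ± 0.696 against 1.34 ± 0.157 CPM, adjusted p = 6.00e-05). Lower were the receptors Fzd2 (8.83 ± 1.39 against 17.0 ± 1.34 CPM, adjusted p = 6.90e-06) and Fzd6 (9.61 ± 1.01 against 13.5 ± 1.04 CPM, adjusted p = 2.20e-04) and the Dkk receptor Kremen1 (30.0 ± 4.49 against 37.3 ± 1.85 CPM, adjusted p = 0.0111). Without CAST_142 and WSB_100 the number lower was 7.

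For Gpihbp1, 14 of 21 lipolysis genes were tested, with a median log2 difference of -0.11. Of the 14, 3 were higher and 2 lower in CAST/EiJ, 35.7% called beside 42.7% of all genes tested. The Gpihbp1 ligand lipoprotein lipase, Lpl, was 47.2 ± 16.7 against 51.7 ± 8.56 CPM and was not called (adjusted p = 0.697). Vldlr, a lipoprotein receptor, was 131 ± 3.77 against 114 ± 8.0 CPM (adjusted p = 4.14e-03), the endothelial lipase Lipg 4.08 ± 1.25 against 2.08 ± 0.351 CPM (adjusted p = 2.98e-03) and the hepatic lipase Lipc 1.6 ± 0.636 against 0.939 ± 0.182 CPM (adjusted p = 0.0167). Lower were the lipase inhibitor Angptl4 (2.21 ± 0.651 against 3.73 ± 1.17 CPM, adjusted p = 0.0210) and Apoa1 (0.149 ± 0.0770 against 0.294 ± 0.0398 CPM, adjusted p = 0.0162). Angptl4 missed the threshold without CAST_142 and WSB_100 (adjusted p = 0.0670). Apoa1 had 39 reads in CAST/EiJ and 70 in WSB/EiJ, and it entered the test through WSB/EiJ.

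The enzymes that build and attach the GPI anchor, which most members carry, were listed as well. Of 30, 28 were tested, 3 were higher and 6 lower in CAST/EiJ, and the median log2 difference was -0.05. The share called was 32.1%, beside 42.7% of all genes tested. Pigz and Pigv, mannosyltransferases of the pathway, and Mppe1, which trims the anchor, were higher, with log2 differences of 0.94 (adjusted p = 9.06e-06), 0.38 (adjusted p = 9.04e-03) and 0.33 (adjusted p = 0.0157). Pigk, the catalytic subunit of the transamidase that attaches the anchor, was 62.4 ± 2.18 against 78.5 ± 3.53 CPM (adjusted p = 1.13e-05). Pigp and Pigb were also lower, with log2 differences of -0.82 (adjusted p = 1.39e-05) and -0.68 (adjusted p = 1.57e-05). Pigk, Pigb and Pigp overlap other genes, Pigk with 38.2% of its body outside them.

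The genes most like each member in level were found by the Pearson r of log2 CPM, centred within strains. They were sought over 12 animals among 12328 other genes. Depth and regional marker sums varied between the animals, most in CAST_142 and WSB_100 for the marker sums, so r is a description. For Ly6a they were Sf3b4 (0.94), Brcc3 (0.93) and Mrpl39 (0.93). For Ly6e they were Coro1a (0.94), Syt13 (0.92) and Ywhah (0.92). For Ly6h they were Syngr3 (0.99), Pgrmc1 (0.98) and Glra2 (0.97), and 84 genes exceeded 0.9. For Lynx1 they were Brsk2 (0.96), Map3k9 (0.95) and Frmd5 (0.94), and for Lypd1 Htr2c (0.93), Hrk (0.93) and Hsbp1 (0.92). For Lypd6 they included Maml1 (0.86) and Creb5 (0.85), and 0 genes exceeded 0.9. Over the 6 CAST/EiJ animals alone, Ly6c1 was nearest Hspbap1 (0.99), Pmaip1 (0.97) and Rsf1 (0.96), and Ly6c2 nearest Rac1 (1.0), Sumf1 (1.0) and Ube2o (0.99). With 6 animals 110 genes exceeded 0.9 for Ly6c2, so these carry little weight. Without CAST_142 and WSB_100 the values of the nearest gene were 0.90 for Ly6a, 0.93 for Ly6e, 0.97 for Ly6h, 0.92 for Lynx1 and 0.88 for Lypd1.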

How the data were processed

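Brain RNA of 6 CAST/EiJ and 6 WSB/EiJ mice was measured, with a file for each animal and lane (24 files). The authors deposited a raw count for each gene, a whole number with no scaling. Tools named in the submitters' processing notes, with no role or order, are HTSeq, DESeq2, cutadapt and TopHat2 2.1.1. Build, annotation, read length and strandedness are given by none of the sources used here. Both lanes of an animal were summed, and 5 counters without a gene were set aside before scaling and testing. Of 53465 identifiers, 53274 are on GENCODE M21 chromosomes, from which symbols and coordinates were taken; RefSeq gave the promoters. Of 1282 protein-coding genes wholly inside other genes 98.9% are listed at 0, against 16.0% of those overlapping none, so reads seem to have been assigned to whole gene bodies and a count may hold intronic reads.

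The strain comparison used the robust quasi-likelihood test of edgeR 4.0.16 (R 4.3.3), TMM scaling, the default expression filter and a Benjamini-Hochberg adjustment over 18425 genes; calls were made at an adjusted p under 0.05. CPM are TMM-scaled, and log2 CPM uses a prior count of 2. Exact permutation tests used scipy 1.17.1. The members and lists were chosen with earlier results of these data known. Named were all members, up to 3 called genes with the smallest p in each direction of each list, protein-coding neighbours called with at least a 2-fold difference, and the 3 genes most like each member, of which 1 for Lypd6 is not reported here. Ly6i, Gm8000, Cd59a, Lypd6b, Lpl, Lrp6, Acta2, Cspg4, Notch3, Chrna4, Chrnb2 and Chrna7 fall outside this rule and were named after their values were seen. The same holds for Anpep, Higd1b, Pdgfrb, Cd163, Itgal, F13a1 and Ptprc. Alternatives were RLE and library size scaling, DESeq2 1.42.0, no filter, a stricter filter, single lanes and left-out animals; stretches of 50 bases, the mural sum without Rgs5 and Vtn and the means without CAST_142 or WSB_100 were added after seeing the data.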

Additional observations from a re-analysis of the deposited data

Results flagged for a closer look

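Among 35 groups of 6 animals searched, 7 had 1 animal whose gap to the others was large beside the group's range, where chance gives about 1 in 20. Ly6a in CAST_142 was 3.14 CPM, with the next CAST/EiJ animal at 2.22. Ly6i in CAST_142 was 1.49 CPM, with the next at 0.383. The same library held a cerebellar marker sum of 994 CPM, with the next at 62.5. In WSB_100 the olfactory bulb marker sum was 218 CPM, with the next at 41.9, and the mural marker sum was 246 CPM, below the next at 269. The mural marker sum of CAST_170 was 194 CPM, with the next at 174. Naprt in WSB_169 was 1.77 CPM, below the next at 2.35.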

How the results depend on the processing

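The log2 difference of Ly6a kept its sign and moved by less than the spread between animals under every alternative run, from -1.71 to -1.53 with each animal left out in turn and -1.72 without CAST_142 and WSB_100. That of Ly6c1, main value 9.53, was 9.86 by DESeq2, 9.21 on lane 5 and 9.17 on lane 6 alone, 10.05 without CAST_142 and WSB_100, 7.22 with a prior count of 2, and 9.31 to 10.03 with each animal left out. The number of genes called between strains was 7866 and 7313 to 8726 with each animal left out. Other Ly6/uPAR genes higher in CAST/EiJ numbered 3, and 6 by DESeq2, 7 with no filter, 0 with the stricter filter, 0 on lane 5 and 0 on lane 6, where fewer genes were tested, and 3 to 5 leaving out 1 animal. Lipolysis genes lower numbered 2, 1 with the stricter filter and 2 to 4 leaving out 1 animal. Nicotinic genes higher numbered 3, and 5 without CAST_142 and WSB_100; those lower numbered 2, 1 with the stricter filter, on lane 5, on lane 6 and without CAST_142 and WSB_100, and 1 to 2 leaving out 1 animal. Wnt genes lower numbered 4, 7 without CAST_142 and WSB_100 and 4 to 6 leaving out 1 animal. GPI anchor genes higher numbered 3 and 3 to 5 leaving out 1 animal. Mural markers higher numbered 0, 1 without CAST_142 and WSB_100 and 0 to 1 leaving out 1 animal. Chromosome 15 neighbours higher numbered 10 and 6 on lane 6; those lower numbered 2, 1 with the stricter filter, 1 on lane 5, 0 on lane 6, 4 without CAST_142 and WSB_100 and 1 to 3 leaving out 1 animal. None of the 28 tests of members against the endothelial score passed adjustment, and none could have passed it on its own. Without the animals farthest from the median score, r in CAST/EiJ changed sign for Ly6c1 (0.57), Ly6c2 (0.41), Ly6h (0.78) and Lynx1 (-0.95). In WSB/EiJ it changed sign for Lypd6 (-0.06). For Lypd1 in WSB/EiJ rho was 0.14 against an r of -0.06, which was -0.80 without WSB_100. Apart from the filters and lanes, the cause was not tested. The few reads of Ly6c2 and Gpihbp1, and of Ly6c1 in WSB/EiJ, limit what can be said of them, as do the reads shared among near copies and the unknown build.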
